A study of Homo sapiens with 24 samples.

Results

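The genes described here encode the proteins of the cytosolic ribosome. Members were the rows of the count table whose symbol is RPL or RPS followed by a number, with at most 1 closing A, X or L, together with RPLP0, RPLP1, RPLP2 and RPSA. The rule found 81 of 59385 rows, 49 for the large subunit and 32 for the small subunit, and it used no measured value. RNA-seq counts were available for 24 libraries of 2 established human non-small cell lung cancer lines, A549 and H1299, with no other treatment named. Cells of every group had been transduced stably with lentivirus, which carried either FLAG-tagged SIRT6 or, in the controls (Ctr), the FLAG-tagged vector with no insert. The SIRT6 was wild type (WT), a triple mutant that cannot be acetylated at the changed lysines (K3R) or a triple mutant that mimics acetylation there (K3Q). SIRT6 is a nuclear NAD-dependent deacylase of histones and other proteins, and the endogenous gene remained in all cells. Each of the 8 groups had 3 libraries, written here as biological replicate and batch: 1-1 and 1-2 are replicate 1 in batches 1 and 2, and 2-2 is replicate 2 in batch 2. The labels do not say what a batch is, or whether 1-1 and 1-2 share a culture, so p-values measure only the spread between these libraries, part of which may be technical.

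Ribosomal proteins assemble on ribosomal RNA in near-equal numbers, and their mRNAs are among the most abundant in growing cells. Most of these mRNAs begin with a C followed by a run of pyrimidines, the 5′ terminal oligopyrimidine (TOP) tract, through which mTORC1 and the RNA-binding protein LARP1 control their translation and stability. SIRT6 is known as a co-repressor of MYC at ribosomal protein genes. A few members have paralogs with narrower roles: RPL3L is typical of striated muscle, and RPL10L and RPL39L of the testis. RPS27L is a close relative of RPS27. RPL5 and RPL11 also bind the ubiquitin ligase MDM2 outside the ribosome.

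RefSeq start sites (GRCh38.p14) were at hand for 64 of the 81 members, in 79 entries. A C at the annotated start followed by at least 4 more pyrimidines stood in 46 of the 79 entries (58.2%), against 4.07% of all 35116 entries. It stood in 13 of 20 entries of other TOP mRNAs, in 6 of 85 entries of mitochondrial ribosomal proteins, and in 0 of 18 entries of mTORC1 and LARP1 genes. The windows below run from 10 bases before to 20 bases from the start, 5′ to 3′, with the tract in capitals. They show the members on which the results turn, including RPS27L, which has no tract at its single annotated start. Both entries of RPL19, the 5′-most first, have none by this rule. The annotated start of the second is a T inside a run of pyrimidines, which the rule does not count.
RPS9, chr19:54200848-54200877, plus strand: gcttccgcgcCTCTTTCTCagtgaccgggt
RPSA, chr3:39406710-39406739, plus strand: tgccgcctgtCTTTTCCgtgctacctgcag
RPS3, chr11:75399508-75399537, plus strand: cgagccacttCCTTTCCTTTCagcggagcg
RPLP1, chr15:69452808-69452837, plus strand: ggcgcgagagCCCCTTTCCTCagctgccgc
RPL13A, chr19:49487598-49487627, plus strand: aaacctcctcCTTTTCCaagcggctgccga
RPL35A, chr3:197950180-197950209, plus strand: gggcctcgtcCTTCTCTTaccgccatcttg
RPS27, chr1:153990752-153990781, plus strand: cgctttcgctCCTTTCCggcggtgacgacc
RPS27L, chr15:63157458-63157487, minus strand: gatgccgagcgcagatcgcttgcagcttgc
RPL19, chr17:39200273-39200302, plus strand: tctccccttcgcagataatgggaggagccg
RPL19, chr17:39200313-39200342, plus strand: agctctttcctttcgctgctgcggccgcag

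Other letters were common in the 300 bases around the starts, from 250 before to 50 after. CCGGAAG, a core of ETS factor sites, stood on either strand in 27 of the 79 member entries (34.2%) and in 10.3% of all entries. ATGGCG stood on either strand in 28 member entries (35.4%) against 10.7%. It includes the letters ATG, but a match need not be the start codon of the gene. TATAA was found in 17.7% of member entries against 20.4% of all, and CACGTG, the E-box that MYC can bind, in 5.06% against 7.26%. These are matches of letters only, and every motif was counted on either strand.

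The coding sequences of RPS27 and RPS27L have 252 bases each and differ at 56, an identity of 77.8%, and 48 of their 84 codons differ. They are printed because RPS27L differed most between the lines and RPS27 is its partner of equal length, with the differing bases in capitals (GENCODE 29, GRCh38).
RPS27, coding parts within chr1:153990797-153992090, plus strand: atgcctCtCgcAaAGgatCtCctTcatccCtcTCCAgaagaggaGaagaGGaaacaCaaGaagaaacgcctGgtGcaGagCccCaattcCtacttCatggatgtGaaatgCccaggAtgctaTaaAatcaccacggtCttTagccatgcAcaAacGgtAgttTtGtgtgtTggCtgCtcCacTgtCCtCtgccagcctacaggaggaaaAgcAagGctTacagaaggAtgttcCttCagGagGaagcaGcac
RPS27L, coding parts within chr15:63154035-63157405, minus strand: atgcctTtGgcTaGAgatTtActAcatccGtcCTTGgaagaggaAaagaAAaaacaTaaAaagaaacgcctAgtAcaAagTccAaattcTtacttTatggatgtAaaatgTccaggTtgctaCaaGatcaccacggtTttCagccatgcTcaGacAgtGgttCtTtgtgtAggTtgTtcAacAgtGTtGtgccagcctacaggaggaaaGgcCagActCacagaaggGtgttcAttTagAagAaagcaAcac
RPL39 and RPL39L are closer, with 8 differing bases in 153 (94.8% identity), so reads of this pair are harder to assign and their counts are uncertain.
RPL39, coding parts within chrX:119786687-119791576, minus strand: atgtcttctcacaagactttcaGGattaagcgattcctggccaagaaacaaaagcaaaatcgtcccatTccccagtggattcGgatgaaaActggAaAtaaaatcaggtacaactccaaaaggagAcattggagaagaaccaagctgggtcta
RPL39L, coding parts within chr3:187121148-187121300, minus strand: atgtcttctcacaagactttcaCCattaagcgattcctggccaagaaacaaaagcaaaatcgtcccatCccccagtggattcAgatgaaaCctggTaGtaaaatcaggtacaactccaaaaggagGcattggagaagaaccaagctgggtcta

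Total gene counts ran from 14943189 to 22856407 per library, with a median of 17554581. SIRT6 stood at 22.1 to 33.6 CPM in A549 Ctr, where CPM is the count scaled to the total of the library, and at 1370 to 3254 CPM in the 9 other A549 libraries. In H1299 it stood at 35.2 to 46.3 CPM in Ctr, 2490 to 6877 CPM in WT, 2710 to 6075 CPM in K3R and 10434 to 14552 CPM in K3Q, so the K3Q libraries held more SIRT6 mRNA than any WT or K3R library of that line. The lines fitted their labels: AKR1B10, abundant in A549, was at 1807 to 3444 CPM there and at most 1.85 CPM in H1299, CDH1 and FGB were at most 0.643 CPM in H1299, and PTPRC, CD3E, ALB and PECAM1 stayed at or below 0.487 CPM in all libraries. Libraries 1-2 and 2-2 of A549 K3Q were nearly the same: a chi-square of their counts was 2.49 per degree of freedom, against 14.4 to 63.6 for the other pairs within groups. They still differed by more than counting error and were kept as 2 libraries.

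The members together took 6.24 to 6.84% of all counts in A549 and 6.87 to 9.38% in H1299, so that every H1299 library was above every A549 library. In a total of counts, more ribosomal protein mRNA and less of other RNA per cell cannot be told apart. In A549 the ranges of the groups overlapped, with 6.45% ± 0.184 for Ctr, 6.64% ± 0.200 for WT, 6.60% ± 0.220 for K3R and 6.58% ± 0.101 for K3Q (SD, n = 3). In H1299 it was 8.44, 7.65 and 7.07% in Ctr libraries 1-1, 1-2 and 2-2, then 7.73, 7.57 and 6.87% in WT, 8.69, 7.88 and 6.91% in K3R and 9.29, 9.38 and 7.34% in K3Q. Within H1299 the K3Q library was the highest of the 4 constructs at each library number, and the 2-2 library was the lowest of its group in all 4 groups. Large subunit genes took 1.54 to 1.60 times the counts of small subunit genes in A549 and 1.48 to 1.58 times in H1299. Mitochondrially encoded genes, all 37 rows with symbols that start with MT-, took 6.04 to 8.32% in A549 and 2.22 to 3.73% in H1299. The part of that difference in the shares of the members was not tested.

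**Figure D1:**
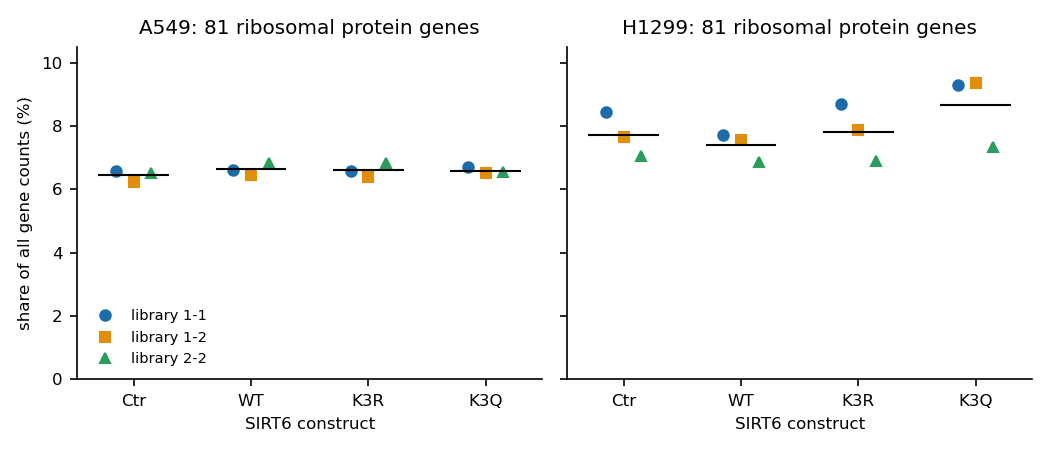
Share of all gene counts (%, vertical axis) held by the 81 ribosomal protein genes in each library, by SIRT6 construct in A549 (left) and H1299 (right); symbols mark the library number and lines the mean of 3 libraries. A549 libraries lie between 6.24 and 6.84%, while H1299 libraries spread from 6.87 to 9.38%, with the 2-2 library lowest in each H1299 group.

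Levels between genes were compared as CPM per kilobase of coding sequence, which overstates genes with short coding and longer untranslated parts. The median member stood at 1421 on this scale in A549 and 1744 in H1299. RPL41, with 75 coding bases, was the highest in both lines, at 6751 and 8751. It was followed in A549 by RPL13A (5160) and RPLP1 (5071), of which RPLP1 belongs to the stalk that recruits elongation factors, and in H1299 by RPS19 (6494) and RPS16 (5906), both of the small subunit. The same 6 members were under 100 in both lines, among them RPL17, RPL36A, RPS10, RPL3L and RPL10L. RPL10L had no read in any library and was the 1 member that no test included. For a single library taken alone, no read allows a mean of up to 3 counts at 95% confidence. Over all libraries together it allows less. RPS10, RPL17 and RPL36A overlap annotated read-through genes, whose rows held only 0, 3 and 1 counts over all libraries, so the low levels of these 3 are uncertain. Separate rows named as pseudogenes of members held counts equal to 0.741 to 0.871% of member counts in A549 and 1.26 to 1.60% in H1299. Relative to the member they held most for RPS10 (178%) and RPL23A (37.0%).

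In A549 no construct comparison moved a ribosomal protein gene past the threshold. The test was edgeR's quasi-likelihood test with construct and batch as terms, on 16120 genes of which 80 were members, and a gene passed at a Benjamini-Hochberg adjusted p under 0.05. In edgeR the share of all genes that passed was 0.105% (WT), 0.118% (K3R) and 0.0248% (K3Q) against Ctr. It was 0% between K3R and WT, 0.0062% between K3Q and WT and 0.0062% between K3Q and K3R. DESeq2 also called 0 members in all 6 comparisons, and no share of all genes is given for it. At an unadjusted p under 0.05, edgeR counted 4 members for WT against Ctr, where 7.93% of all genes did the same. The counts were 1 member for K3R against Ctr (6.92% of all genes), 9 for K3Q against Ctr (8.62%), 0 between K3R and WT (0.72%), 1 between K3Q and WT (6.46%) and 1 between K3Q and K3R (4.39%). All of these members were higher in the construct named first. The median log2 change of the 80 members was 0.08 for WT, 0.07 for K3R and 0.10 for K3Q against Ctr, beside medians of 0.00 over all genes in each case.

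Among A549 members with the lowest p, none passed. For K3Q against Ctr these were RPL31 (log2 change 0.41 ± 0.13 SE), RPL37A (0.36 ± 0.12) and RPL17 (0.53 ± 0.17), with adjusted p from edgeR of 0.402 to 0.416. For WT against Ctr they were RPL26, RPL35A and RPL34, with log2 changes of 0.19 to 0.21, and for K3R against Ctr they were RPL34 (0.19), RPL17 (0.37) and RPS28 (0.20). Between the SIRT6 forms the lowest p belonged to RPL26 (-0.12), RPL38 (-0.13) and RPS3A (0.09) for K3R against WT. They belonged to RPL27A (0.21), RPL28 (-0.24) and RPL19 (0.11) for K3Q against WT, and to RPL27A (0.18), RPS29 (0.17) and RPL37A (0.18) for K3Q against K3R. Matched by library number, median differences of the members from Ctr were largest at 2-2, at 0.15, 0.15 and 0.18 in WT, K3R and K3Q. They were 0.06, 0.04 and 0.09 at 1-2. In the same order, 71, 71 and 70 of 80 members were above Ctr at 2-2, 61, 59 and 72 at 1-2 and 47, 40 and 53 at 1-1. The differences at 2-2 share 1 Ctr library. Library numbers were not taken to pair the A549 libraries, and K3Q libraries 1-2 and 2-2 were nearly the same. The matching by number is therefore a description only. No share of all genes is given beside these counts.

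In H1299 the members leaned upward in K3Q, and few passed the test one by one. For K3Q against WT 75 of the 80 tested members had a higher estimate, with a median log2 change of 0.29 against 0.00 over all 16262 genes. At an unadjusted p under 0.05 edgeR counted 47 members higher and 2 lower, where 20.3% of all genes passed that mark in either direction. Without K3Q library 1-2 the median was 0.17 and 14 members reached that mark, and 5 did with the libraries of biological replicate 1 summed. Without WT library 1-1 the count was 19. After adjustment 2 members passed, RPS9 higher and RPS27L lower, where 3.46% of all genes passed. Library numbers were taken to pair the H1299 libraries. For WT and K3Q this pairing was weak: their deviations from group means correlated at 0.360 at 1-1, 0.195 at 1-2 and 0.131 at 2-2. With the number as a block 43 members rose and 2 fell for K3Q against WT, where 12% of all genes passed. DESeq2 called 14 higher and 2 lower, with 6.92% of all genes. Without H1299 K3Q library 2-2 edgeR called 29 higher and 1 lower, and leaving out library 1-2 or 2-2 of WT, or 1-1 or 1-2 of K3Q, gave 0 and leaving out WT 1-1 or K3R 1-1 gave 1. For fits with libraries left out or summed, here and below, no share of all genes is given. Their counts therefore do not show whether members gained or lost calls more than other genes.

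RPS9, an early-assembling small subunit protein (chr19:54200742-54249003, GRCh38), stood in H1299 at 888, 814 and 775 CPM in the Ctr libraries 1-1, 1-2 and 2-2, at 871, 745 and 707 CPM in WT, at 1076, 857 and 813 CPM in K3R and at 1224, 1092 and 833 CPM in K3Q. The K3Q library was the highest at each number, but the ranges of K3Q and WT overlapped, since K3Q 2-2 was below WT 1-1. The log2 change for K3Q against WT was 0.52 ± 0.12 (SE, adjusted p = 0.0341 from edgeR, higher in 3 of 3 matched libraries), and the edgeR call was lost without any single WT library, K3R library 1-1 or K3Q library 1-1 or 1-2, where the estimates were 0.40 to 0.55. In A549 RPS9 stayed between 871 and 985 CPM in all 12 libraries.

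RPS27L went the other way (chr15:63125872-63158021). Its level in H1299 was 32.5, 28.0 and 26.7 CPM in Ctr, 31.9, 41.2 and 45.7 CPM in WT, 29.8, 38.5 and 35.2 CPM in K3R and 22, 23.36 and 22.96 CPM in K3Q. All 3 K3Q libraries were below all 9 others of the line. It fell by 0.71 ± 0.14 on the log2 scale in K3Q against WT (adjusted p = 0.0193 from edgeR), a call lost without WT library 1-2 or 2-2 or K3Q library 1-1 or 1-2 (-0.74 to -0.61). It was 0.55 ± 0.14 lower in K3Q than in K3R, a difference with an adjusted p of 0.108 that passed with the library block (0.0361) in edgeR. RPS27 itself, at 576, 550 and 474 CPM in K3Q and 450, 514 and 451 CPM in WT, had a log2 change of 0.26 ± 0.12 that did not pass (adjusted p = 0.248 from edgeR).

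**Figure D2:**
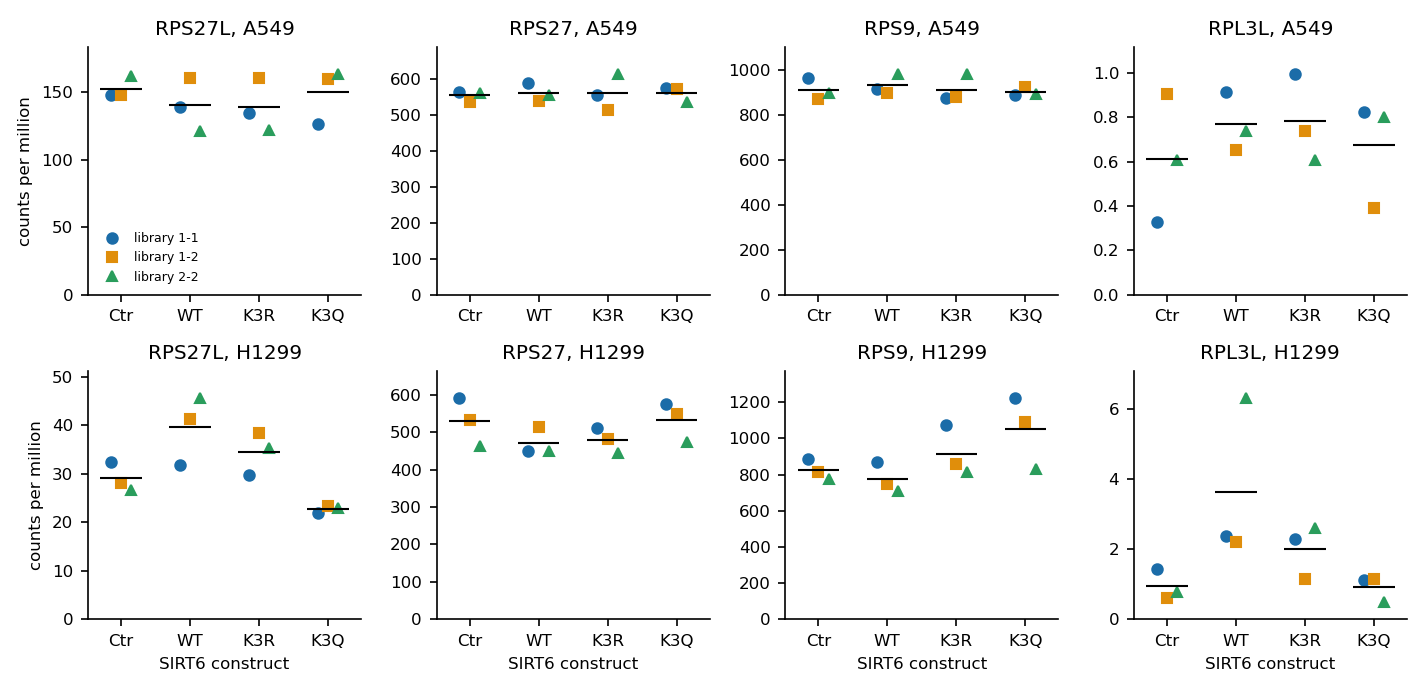
CPM (vertical axes, starting at 0) of RPS27L, RPS27, RPS9 and RPL3L in each library of A549 (top) and H1299 (bottom), by SIRT6 construct; symbols mark the library number and lines the mean of 3. In H1299 RPS27L is at 22 to 23.36 in K3Q, below the other 9 libraries, while RPS9 reaches 1224 in K3Q library 1-1.

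Other members are given for K3Q against WT in H1299, and none of them passed without the block. RPSA, the laminin receptor of the small subunit, had the largest positive estimate, 0.54 ± 0.19, with CPM of 2285, 2026 and 1307 in K3Q and 1605, 1420 and 1064 in WT. With the library block it rose by 0.52 ± 0.07 (adjusted p = 0.000770 in edgeR). The stalk proteins RPLP0, RPLP1 and RPLP2 had log2 changes of 0.39, 0.41 and 0.42 (SE 0.12 to 0.13), and each rose with the block (adjusted p of 0.00783 to 0.0163 in edgeR). RPL19, of the large subunit, had 0.38 ± 0.10 and rose with the block, and RPS6, the substrate of the S6 kinases, had 0.26 ± 0.12 and rose with the block. RPL3, near the peptidyl transferase centre, rose by 0.39 ± 0.07 with the block, as did RPS3 at the mRNA entry (0.39 ± 0.07), which was chosen after its values were seen. RPL3L, at 0.487 to 1.14 CPM in K3Q, had -1.92 ± 0.52 (adjusted p = 0.0597 in edgeR) and fell by 1.82 with the block, the other member that fell beside RPS27L. The MDM2-binding pair had small estimates: RPL5 had 0.08 ± 0.14 and RPL11 had -0.03 ± 0.11, and neither passed in either fit.

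Against Ctr, the H1299 K3Q libraries had 77 of 80 members with a higher estimate and a median log2 change of 0.24, and 0 passed the edgeR threshold, with 0.0615% of all genes passing. At an unadjusted p under 0.05 there were 26 members, all higher, where 9.72% of all genes reached that mark. Without K3Q library 1-2 the median was 0.11 and 4 members reached it, while the count was 15 without K3Q library 1-1 and 13 without Ctr library 2-2. Without K3Q library 2-2 the count was 47. With biological replicate 1 summed, 0 members reached that mark and 0 passed. DESeq2 called 1 member, RPS9, with 0.732% of all genes. With the library block RPS9 (0.43 ± 0.09), RPL13A (0.41 ± 0.09) and RPS3 (0.34 ± 0.07) rose, with adjusted p from edgeR of 0.0352, 0.0366 and 0.0453, where 0.836% of all genes passed. The block treats 1-1 and 1-2 of biological replicate 1 as separate pairs. The lowest p without the block were those of RPS9 (0.44 ± 0.12), RPL28 (0.40 ± 0.13) and RPLP1 (0.38 ± 0.12). Matched by number, the median difference of the members from Ctr was 0.14 at 1-1, 0.37 at 1-2 and 0.14 at 2-2, with 60, 77 and 74 of 80 members higher. These comparisons and those of WT and K3R against Ctr share the Ctr libraries. No share of all genes is given beside the counts from matched libraries.

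Against K3R, 75 of 80 members had a higher estimate in H1299 K3Q, with a median log2 change of 0.20. Of these 0 passed in edgeR, where 0.449% of all genes passed, and DESeq2 called 1, RPS27L, with 2.07% of all genes. At an unadjusted p under 0.05 there were 10 higher and 1 lower, and 11.9% of all genes were counted. The lowest p were those of RPS27L, RPL19 (0.29 ± 0.10) and RPL22 (0.26 ± 0.11). With the block RPSA rose by 0.31 ± 0.07 and RPS27L fell by 0.55 ± 0.13, and 3.23% of all genes passed. The H1299 K3Q libraries that held these levels also held the most SIRT6 mRNA, and the part of the transgene's level in the members' values was not tested.

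For WT and K3R against Ctr in H1299 the members' medians were near 0. For WT against Ctr the median log2 change was -0.05 and 1 member passed in edgeR, RPL3L, where 4.05% of all genes passed and DESeq2 called 1 member and 6.5% of all genes. The unadjusted counts were 2 higher and 1 lower, with 17.5% of all genes. RPL3L stood at 1.42, 0.604 and 0.773 CPM in Ctr, 2.36, 2.19 and 6.32 CPM in WT, 2.28, 1.14 and 2.60 CPM in K3R and 1.11, 1.14 and 0.487 CPM in K3Q. Its log2 change was 1.97 ± 0.51 (adjusted p = 0.0488 from edgeR, higher in 3 of 3 matched libraries), at a level far below that of RPL3, and the call was lost without WT library 2-2 (1.24) and without each of 7 other libraries. With the library block RPL3L and RPS27L (0.44 ± 0.13) rose and RPL19 fell by 0.29 ± 0.08, where 9.75% of all genes passed.

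For K3R against Ctr in H1299, 0 members passed in edgeR and in DESeq2, where 3.25% of all genes passed in edgeR. The unadjusted count was 4 members against 17.6% of all genes, and RPL28 (0.30), RPL22 (-0.24) and RPL10 (0.29) had the lowest p. For K3R against WT 0 members and 0% of all genes passed, and the unadjusted count was 1 member, RPS9 (0.28 ± 0.12), against 2.99% of all genes. RPL10 (0.25) and RPL28 (0.23) followed, and 72 of the 80 estimates were above 0 with a median of 0.09.

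**Figure D3:**
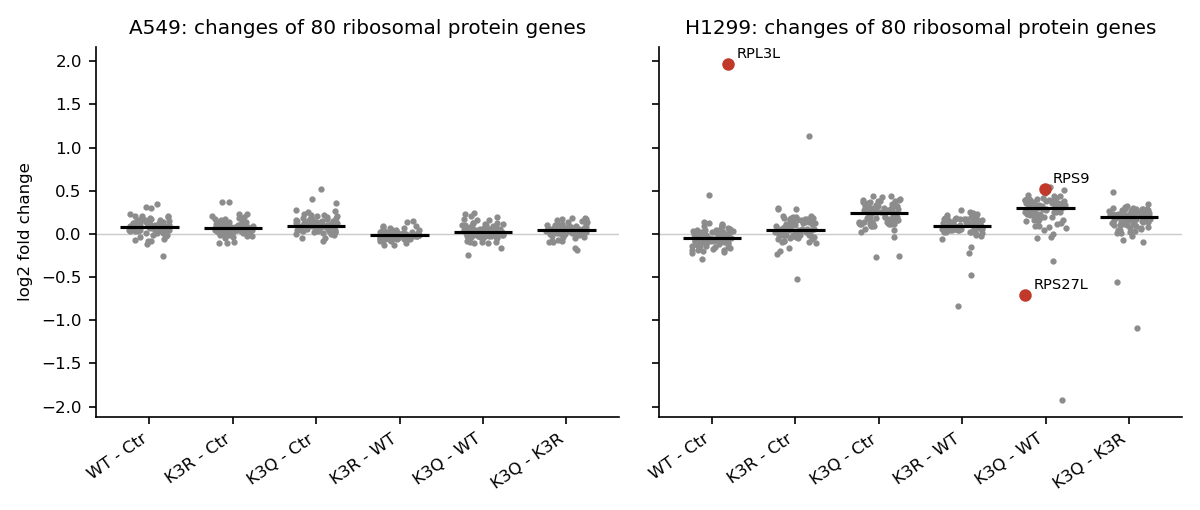
Log2 fold changes (vertical axis) of the 80 tested ribosomal protein genes in the 6 construct comparisons of A549 (left) and H1299 (right); each point is a gene, red points passed an adjusted p under 0.05 in edgeR and black lines are medians. A549 medians lie between -0.02 and 0.10, and the H1299 medians for K3Q against Ctr, WT and K3R are 0.24, 0.29 and 0.20.

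Genes around the ribosomal proteins were read from set lists in the K3Q against WT comparison of H1299, in which 3.46% of all genes passed. FAU and RACK1, ribosomal proteins outside the naming rule, had estimates of 0.40 and 0.31, and neither passed. Of 25 other TOP mRNAs, which encode translation factors and host snoRNAs, 23 had a higher estimate, the median was 0.11 and 0 passed. Of 77 mitochondrial ribosomal proteins 65 had a higher estimate with a median of 0.19, and 3 rose: MRPL34 (0.50 ± 0.11), MRPL11 (0.47 ± 0.12) and MRPS16 (0.42 ± 0.10), a share close to that of all genes. Of 16 genes of mTORC1 and LARP1 control 1 rose, EIF4EBP1, a translation repressor that mTORC1 phosphorylates (0.82 ± 0.15, adjusted p = 0.0120 from edgeR). It had fallen by 0.60 ± 0.15 in WT against Ctr, while its relative EIF4EBP2 rose there by 0.44 ± 0.11. None of 12 chaperones and importers of ribosomal proteins passed. Members with a TOP start by the rule above had a median of 0.30 (46 genes) in K3Q against WT and those with none 0.28 (17 genes). The latter include RPL19, whose second annotated start lies inside a run of pyrimidines.

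The change from Ctr was not shown to differ between the lines. In a fit of all 24 libraries and 18102 genes, 0 members passed in edgeR and in DESeq2 for each of the 3 interactions, with 0.365% of all genes for WT, 0.238% for K3R and 0.011% for K3Q passing in edgeR. The unadjusted counts of members were 2 (7.85% of all genes), 0 (7.14%) and 3 (5.09%). For K3Q, 59 of 80 estimates were lower in A549 than in H1299, with a median difference of -0.10, and RPL28 (-0.48 ± 0.20), RPL13 (-0.38 ± 0.17) and RPS9 (-0.39 ± 0.18) had the lowest p. In the other direction RPL17 (0.38), RPS27L (0.30) and RPL31 (0.29) came first. For WT the lowest p were those of RPS27L (-0.53 ± 0.20) and RPL3L (-1.62 ± 0.72), with RPL39 (0.28) and RPS13 (0.26) the other way. For K3R they were RPS27L (-0.40), RPL10 (-0.30) and RPL3L (-0.78), with RPL39 (0.20), RPL22 (0.19) and RPS7 (0.20) the other way.

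Many members differed between the lines themselves. Calls in both directions together were no more frequent among members than among all genes. Between the Ctr libraries 20 members were higher and 26 lower in A549 than in H1299, of the 80 tested, beside 31.8% and 32% of all genes, a share below the background for higher and close to it for lower calls. By plain CPM over all 12 against all 12 libraries, 5 members lay above and 26 below in A549 with no overlap, where 17.7% and 24.2% of all genes did so. In all 4 constructs 34 of the 46 were called the same way, 13 higher and 21 lower, and 66 of 80 estimates kept their sign. No share of all genes is given beside these counts over constructs.

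RPS27L had the largest difference. It stood at 122 to 164 CPM in A549 and 22 to 45.7 CPM in H1299, a log2 difference of 2.55 ± 0.15 in Ctr (adjusted p = 5.52e-12 in edgeR). Its counts were 19.8 to 31.3% of those of RPS27, a gene of equal coding length, in A549 and 3.82 to 10.1% in H1299.

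Other large rises in A549 were those of RPL23A (1.08 ± 0.12), RPL19 (0.87 ± 0.10), RPL13A (0.80 ± 0.14), RPL27 (0.76 ± 0.15), RPL18 (0.72 ± 0.14) and RPL28 (0.70 ± 0.14). RPL19 stood at 1166 to 1475 CPM in A549 and 646 to 970 CPM in H1299, without overlap. Pseudogene rows of RPL23A, which are separate from its own row, held counts equal to 22.2% of its counts in A549 and 63.7% in H1299. With them added its difference was 0.52. RPL28 was 0.22 higher and did not pass when the lines were compared in K3Q. RPS9 was 0.31 ± 0.13 higher in A549 in Ctr and -0.08 in K3Q.

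Lower in A549 were RPS20 (-1.57 ± 0.14), RPL35A (-1.34 ± 0.10), RPL9 (-1.26 ± 0.12), RPS12 (-1.14 ± 0.13), RPL7 (-1.09 ± 0.12), RPL17 (-1.03 ± 0.18), RPS18 (-0.96 ± 0.11) and RPS25 (-0.95 ± 0.10). RPS20, at the head of the small subunit, was at 565 to 675 CPM in A549 and 1760 to 2570 CPM in H1299. RPL35A was at 282 to 347 CPM against 778 to 1001 CPM. The MDM2-binding RPL5 and RPL11 were lower by 0.69 ± 0.14 and 0.47 ± 0.10. Of the stalk, RPLP1 and RPLP2 were 0.34 ± 0.12 and 0.31 ± 0.12 higher, while RPLP0 (-0.003), RPS6 (0.08), RPSA (0.12), RPL3 (-0.26) and RPL10 (-0.02) did not pass.

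**Figure D4:**
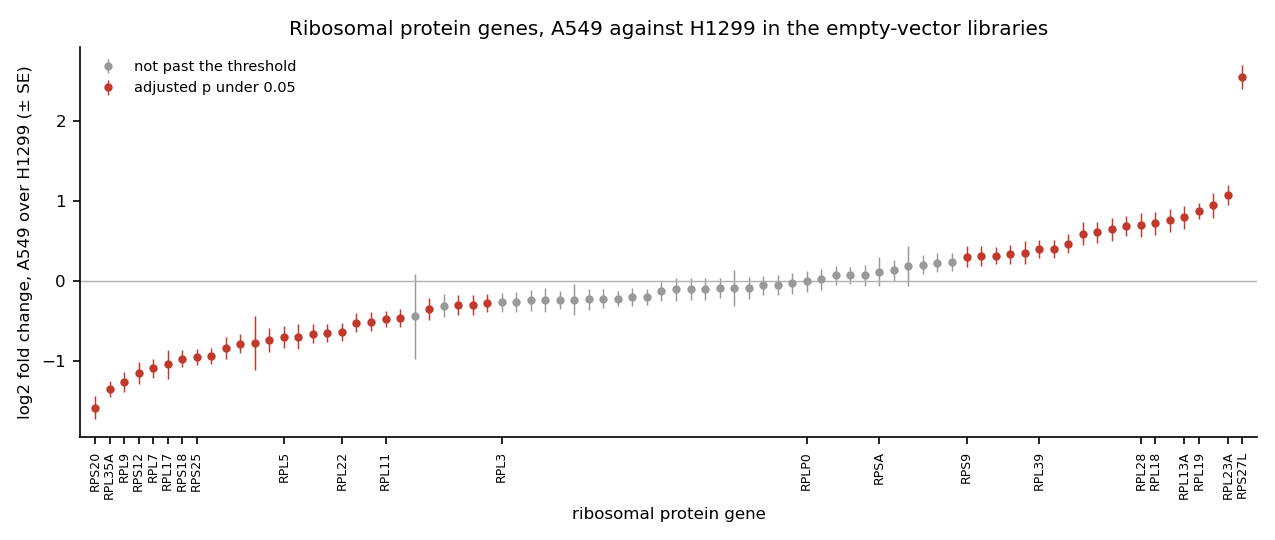
Log2 fold change, A549 over H1299 in the Ctr libraries, with SE (vertical axis) of the 80 tested ribosomal protein genes in order of size, with some of the genes named in the text labelled; red points passed an adjusted p under 0.05 in edgeR. RPS27L stands alone at 2.55 and RPS20 is lowest at -1.57.

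Within paralog pairs the lines differed in both directions. RPL22L1 was 1.26 ± 0.14 higher and RPL22 0.63 ± 0.11 lower on the log2 scale in A549, and the counts of RPL22L1 were 93.2 to 152% of those of RPL22 in A549 and 19.8 to 33.1% in H1299. RPL39L was 0.69 ± 0.16 lower and RPL39 0.40 ± 0.11 higher in A549, with RPL39L at 6.69 to 10.3% of RPL39 counts against 14.3 to 20.9%. RPL26L1 was 0.64 ± 0.15 lower and RPL26 0.32 ± 0.11 higher, with ratios of 37.9 to 53.4% against 77.7 to 110%. RPL7L1 was lower together with RPL7, by 0.81 ± 0.12. RPL36AL was 0.42 ± 0.11 higher, and RPL36A, at 2.94 to 6.17 CPM, did not pass (0.19 ± 0.25). The RPL3L counts were at most 0.0598% of those of RPL3 in A549 and 0.334% in H1299. Outside the rule RACK1 (-0.69 ± 0.11) was lower in A549, as were 13 of 25 other TOP mRNAs, led by PABPC1 (-1.48 ± 0.14), EIF3G (-1.40 ± 0.14) and SNHG6 (-1.19 ± 0.16), with 1 higher, beside 32% of all genes lower and 31.8% higher.

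In H1299, 40 of 80 members were lower in library 2-2 than in 1-2, over all 4 constructs in edgeR with construct and library number as terms, and 0 were higher, where 7.66% of all genes were lower and 8.6% higher. DESeq2 called 41 lower. Of the estimates 78 were below 0, with a median of -0.23, led by RPSA (-0.54 ± 0.06), RPL31 (-0.34 ± 0.06) and RPL4 (-0.33 ± 0.06), and the exceptions RPL3L (0.74 ± 0.40) and RPS28 (0.01 ± 0.09) did not pass. By construct the median difference ran from -0.12 (WT) and -0.16 (Ctr) to -0.22 (K3R) and -0.43 (K3Q). Of the other TOP mRNAs 10 of 25 fell and 0 rose, EIF3E (-0.51 ± 0.07) most, and 22 of 77 mitochondrial ribosomal proteins fell. In A549 the same contrast called 2 members, RPS26 (-0.40 ± 0.12) and RPL39L (-0.35 ± 0.11), both lower, with RPL31 (-0.25) next and RPS12 (0.18), RPL12 (0.22) and RPL22 (0.17) the other way, where 6.28% of all genes were lower and 8.01% higher. Without the near-identical A549 K3Q libraries it called 18. No share of all genes is given for that fit or for the DESeq2 count in H1299.

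Between library 1-2 and 1-1, A549 had 9 members higher and 16 lower, where 11.7% of all genes were higher and 11.7% lower, and H1299 had 2 higher and 12 lower, where 4.79% were higher and 3.98% lower. Of these calls 10 were common to the lines, of 25 in A549 and 14 in H1299, all with the same sign. Over the 80 members the 2 lines' changes had a Pearson r of 0.77 and a Spearman rho of 0.63, as a description across genes that share the batch. In 56 of the 80 the sign was the same in both lines. No overlap of calls or signs over all genes is given beside these values, so they may not be particular to the members. RPL23A fell most, by 1.39 ± 0.08 in A549, where it was at 153 to 197 CPM in batch 1 and 57.9 to 71.1 CPM in batch 2. In H1299 it fell by 1.48 ± 0.11. RPL17, a large subunit protein, fell by 1.15 ± 0.10 in H1299, and RPS23 and RPS29 fell by 0.75 ± 0.08 and 0.67 ± 0.09 in A549, while RPS21 (0.38 ± 0.07) and RPL38 (0.26 ± 0.07) rose there. RPL30 fell by 0.38 ± 0.06 in H1299, where RPS24 (0.27 ± 0.07) and RPS27A (0.24 ± 0.07) rose and RPL7 (0.18 ± 0.06) did not pass.

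**Figure D5:**
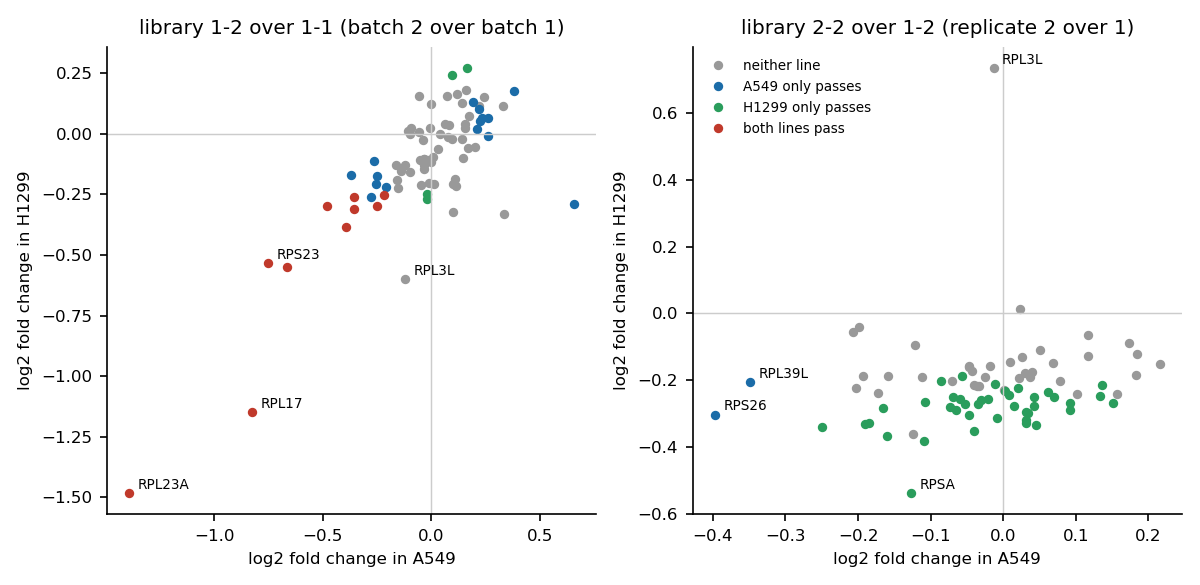
Log2 fold changes of the 80 tested members in A549 (horizontal axis) and H1299 (vertical axis), for library 1-2 over 1-1 (left) and 2-2 over 1-2 (right); colours show in which line a gene passed an adjusted p under 0.05 in edgeR. RPL23A is at -1.39 and -1.48 in the left plot, and 78 of 80 members are below 0 in H1299 in the right plot.

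Members rose and fell together across H1299 libraries more than across A549 libraries. After the line mean was subtracted, Pearson's r of log2 CPM between 2 members over the 12 libraries had a median of 0.73 in H1299 and 0.17 in A549 over 3160 pairs, a description of libraries that share scaling and batch. Differences between constructs and between library numbers remain in these values. No value for pairs of other genes is given, so the contrast of the lines may not be particular to the members. The SD over libraries of a median member was 0.22 in H1299 and 0.12 in A549 on the log2 scale. Over all 24 libraries RPSA had the highest median r with the other members (0.73), then RPS2 (0.73) and RPS16 (0.72). RPS27L (-0.31) and RPL3L (-0.11) were the 2 members with a median r below 0, and RPL22 was next at 0.05.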

How the data were processed

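RNA was measured in 24 libraries, 3 for each of 8 groups. The authors deposited unnormalised counts of reads per gene symbol. Reads were handled with FastQC, cutadapt, STAR and featureCounts on GRCh38, per the submitters' processing notes. The sources used here give no versions, annotation or strand setting. Gene positions and coding lengths came from GENCODE 29 by symbol, and start sites from RefSeq. Reads of near-identical copies cannot be separated.

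Each line was fitted on its 12 libraries with construct and batch, and line contrast and interactions on all 24 with group and batch (filterByExpr, TMM, edgeR 4.0.16 quasi-likelihood test, R 4.3.3, Benjamini-Hochberg over all genes tested). Library contrasts used construct and library number. The SE is the absolute log2 change over the square root of F. CPM was taken over all gene counts, and log2 CPM used TMM factors and a prior count of 2. DESeq2 1.42.0 was an alternative, and the edgeR steps were tested on simulated data.

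Deviations from group means of libraries with the same number correlated at 0.131 to 0.556 between constructs in H1299, so the numbers were taken to pair those libraries. In A549 the lowest was 0.0625, for Ctr and K3Q at 2-2, and they were not. Construct pairs of A549 without K3Q reached 0.659 to 0.750 at 2-2. Batch shifts enter these values. For the difference of 2-2 and 1-2, both of batch 2, WT and K3Q of H1299 correlated at 0.0982, the lowest of that line.

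Members and lists were chosen with earlier results of these data known. Always named were the markers RPS9 and RPL19, RPS6, RPSA, the stalk proteins, RPL5, RPL11 and the paralog pairs. In construct comparisons up to 8 passing members per direction were named, or the 3 lowest p where none passed. For the lines these were the 8 largest rises and falls whose mean log2 CPM reached 1, and for interactions and library contrasts the 3 lowest p per direction. A list names up to 3 genes that passed. Some genes these rules pick are not reported here. RPL3, RPL4, RPL13, RPL13A, RPS2, RPS3 and RPS16 were in places named after their values were seen. Alternatives were no batch term, DESeq2, RLE scaling, the library number as a replicate block, no low-count filter, all 24 libraries, biological replicate 1 summed, batch 2 alone, the near-identical A549 K3Q pair summed, scaling without the members, pseudogene rows summed in and leaving out each library.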

Additional observations from a re-analysis of the deposited data

How the results depend on the processing

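In A549 construct comparisons the count of passing members stayed at 0 under all alternatives, leave-one-out included, except K3Q against Ctr with no low-count filter (1). The interactions stayed at 0 throughout, and the line contrast, 46 calls, gave 38 to 43 when a Ctr library was left out. In H1299, WT against Ctr (1 call) gave 3 with the replicate block and 0 with no batch term, RLE scaling, biological replicate 1 summed and batch 2 alone, and 0 to 1 when a library was left out. K3R against Ctr (0) gave 1 with no low-count filter. K3Q against Ctr (0) gave 3 with the replicate block, 4 with no low-count filter and 1 with DESeq2, and stayed at 0 with biological replicate 1 summed, where 0 members had an unadjusted p under 0.05. K3Q against WT (2) gave 1 with no batch term, 45 with the replicate block, 22 with no low-count filter, 16 with DESeq2, 5 with all 24 libraries, 0 with biological replicate 1 summed and with batch 2 alone, and 0 to 30 when a library was left out. K3Q against K3R (0) gave 2 with the replicate block, 1 with no low-count filter and 1 with DESeq2. For library 2-2 against 1-2 in A549 (2) leaving out K3Q gave 18, and for 1-2 against 1-1 in H1299 (14) no low-count filter gave 25. The replicate block changed no other count by over 1.5 times. Except where given above, these counts have no share of all genes beside them, so a change in them may not be particular to the members. RPS10 in the WT interaction, -0.21, reversed to 0.032 with pseudogene rows summed in and to 0.053 without H1299 Ctr replicate 2-2, and ranged from -0.46 to 0.053 when a library was left out. The causes were not tested. With 3 libraries per group, small changes of a single member are hard to detect, and RPL3L, RPS10 and RPL36A rest on few counts.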
